A study of Mus musculus with 6 samples.

Results

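The genes examined here encode 6 negative regulators of TGF-beta family signalling: the SMAD corepressors Ski, Skil, Tgif1 and Tgif2, and the inhibitors Bambi and Pmepa1, which act at or near the receptors. They were taken by symbol from a count table of 35415 genes, and all 6 were found and passed the filter on low counts. RNA came from ovaries of Rnf111+/- mice (3 libraries) and wild-type mice (3 libraries), all aged 3 months and collected at estrus, and the labels give a separate mouse for each library. The product of Rnf111 is the ubiquitin ligase Arkadia, and the heterozygotes were made with CRISPR-Cas9 to model loss of 1 copy of RNF111 in premature ovarian insufficiency. The edited position, and which of the edited lines was sequenced, are not stated in the sources used here, and neither is whether mice of a genotype were littermates.

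TGF-beta, activin and BMP ligands bind paired serine/threonine kinase receptors, which phosphorylate SMAD proteins that enter the nucleus with SMAD4 and regulate genes. SKI and SnoN, the product of Skil, bind SMADs on DNA and recruit histone deacetylase complexes through NCOR. Arkadia marks SKI, SnoN and SMAD7 for degradation, so it removes brakes on the pathway at the protein level. TGIF1 and TGIF2 are homeodomain proteins that also recruit histone deacetylases to SMADs, BAMBI is a receptor-like membrane protein without a kinase domain, and PMEPA1 is a membrane protein that binds SMAD2 and SMAD3. Skil, Bambi and Pmepa1 are themselves induced by TGF-beta family signals in many cells. In the ovary this family carries signals between oocyte, granulosa and theca cells.

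Library totals ranged from 38261449 to 39474515 counts. The lowest count of any of the 6 genes in a library was 812, for which counting error alone is 3.51%. The coefficient of variation within a genotype ran from 1.34% for Tgif2 to 45.4% for Pmepa1, both in wild-type ovaries. Ovary markers were present in every library, with the oocyte coat gene Zp3 at 25.5 to 39.0 CPM in Rnf111+/- and 18.1 to 24.7 CPM in wild-type ovaries, and the granulosa factor gene Foxl2 at 187 to 266 CPM in Rnf111+/- and 195 to 344 CPM in wild-type ovaries. CPM are counts scaled to library size after adjustment by the trimmed mean of M values (TMM). Rnf111 itself was at 44.6 ± 0.394 CPM in Rnf111+/- and 53.9 ± 0.477 CPM in wild-type ovaries (SD, n = 3 each), a log2 fold change of -0.27 ± 0.07 (SE, edgeR quasi-likelihood test, adjusted p = 0.04). That call held in 1 of the 6 fits that left out a library, the one without wild-type replicate 3 (adjusted p = 0.0421), and reached 0.146 in the others. Wild-type replicate 3 stood apart from the rest: across genes, the correlation of its log2 CPM with wild-type replicates 1 and 2 was 0.974 and 0.975, while the remaining pairs of 1 genotype had 0.986 to 0.989.

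Of the 6 genes, Tgif1 rose in Rnf111+/- ovaries, none fell by edgeR or DESeq2, and 5 did not pass edgeR's test at an adjusted p of 0.05. Across all 16841 tested genes, 3.90% rose, 5.74% fell and 9.64% passed in either direction. The log2 fold changes of the 6 genes, Rnf111+/- over wild type, ran from -0.12 to 0.59 with a median of 0.26, and 5 of the 6 were above 0. Over all tested genes the median was -0.0080, and 48.7% were above 0. An unadjusted p under 0.05 was reached by 2 of the 6 genes (Tgif1 and Skil) and by 25.5% of all tested genes. The values of both genotypes did not overlap for 3 of the 6 genes (Ski, Tgif1 and Tgif2), each higher in Rnf111+/-, whereas 32.0% of all tested genes did not overlap and 15.1% did so with the higher values in Rnf111+/-.

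**Figure D1:**
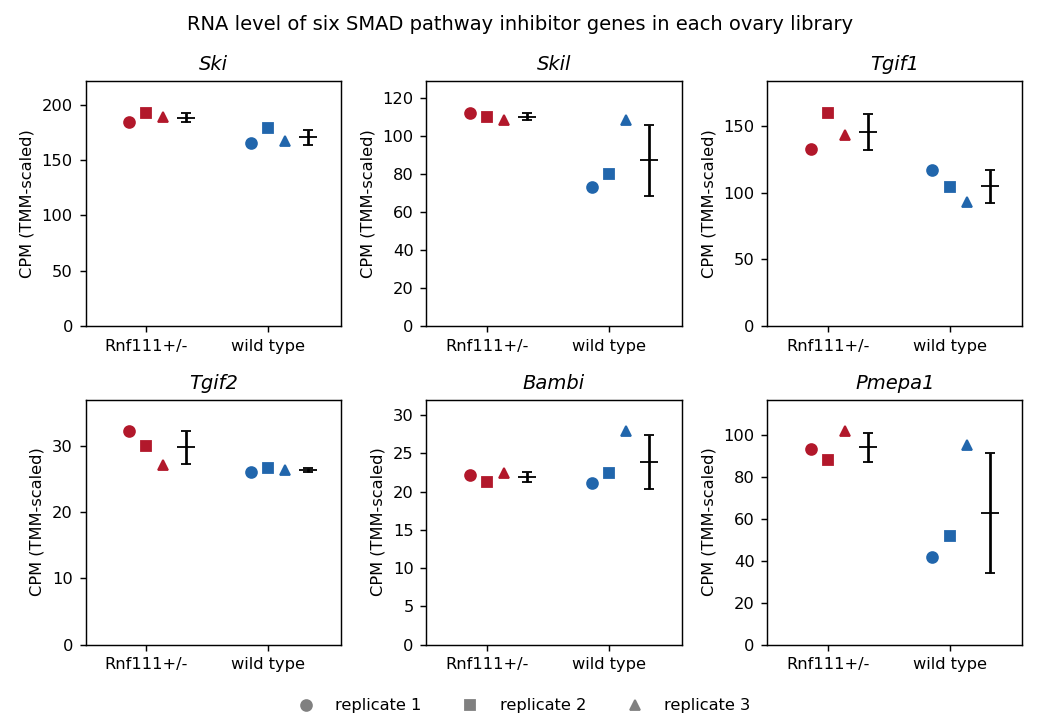
RNA level of each gene in CPM with TMM scaling (vertical axis, from 0) in the 3 Rnf111+/- and the 3 wild-type libraries; points are libraries, shaped by replicate number, and bars are the mean and SD of each genotype. Tgif1 is higher in every Rnf111+/- library than in any wild-type library, while for Skil and Pmepa1 wild-type replicate 3 (triangles), at 109 and 95.1 CPM, lies inside the Rnf111+/- range.

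Tgif1 was the gene with a called difference. Its level was 133, 160 and 143 CPM in the Rnf111+/- libraries and 117, 104 and 92.8 CPM in the wild-type libraries, and the lowest Rnf111+/- value exceeded the highest wild-type value by 0.18 on the log2 scale. Rnf111+/- ovaries averaged 145 ± 13.5 CPM and wild-type ovaries 105 ± 12.3 CPM (SD, n = 3 each). The log2 fold change was 0.47 ± 0.10 (SE), a 1.39-fold higher level with a 95% interval from 1.18 to 1.63 (adjusted p = 0.0256). Permuting the log2 CPM of the libraries exactly (two-sided) gave p = 0.1, and no smaller p is possible with 3 libraries a genotype. The call was lost without Rnf111+/- replicate 2 (adjusted p = 0.0987), without Rnf111+/- replicate 3 (0.0832) and without wild-type replicate 2 (0.0773), with fold changes of 0.41, 0.49 and 0.48 on the log2 scale. It held without Rnf111+/- replicate 1, wild-type replicate 1 or wild-type replicate 3, and under all 7 other settings of scaling, filter, tool and block.

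RefSeq (GRCm38.p6) lists 5 start sites for Tgif1, and windows from 250 bases before to 50 bases after each start were searched for 4 short motifs on both strands. Of the 5 windows, 3 held CAGAC, the pentamer that SMAD3 and SMAD4 bind, and 2 held TGACAG, the site type bound by TGIF proteins in vitro. CAGAC occurs in 49.6% and TGACAG in 19.2% of all 32851 promoter windows of this length, so both are common letters. The window of Tgif2, the close paralog, held neither of them. GGCGCC (a GC-rich BMP SMAD site, 11.9% of windows) was found only in the window of Ski among the 7 windows of the 3 matched genes, and TGACTCA (AP-1, 5.20%) in none of them. The gene-level counts do not show which start site was used. The 2 Tgif1 windows with the most CAGAC matches and with TGACAG nearest to the start, and the Tgif2 window for comparison, are given 5′ to 3′ on the gene's strand, with motif matches in capitals (GTCTG is CAGAC on the other strand).
Tgif1, chr17:70851685-70851984, minus strand, CAGAC at -191 and -59: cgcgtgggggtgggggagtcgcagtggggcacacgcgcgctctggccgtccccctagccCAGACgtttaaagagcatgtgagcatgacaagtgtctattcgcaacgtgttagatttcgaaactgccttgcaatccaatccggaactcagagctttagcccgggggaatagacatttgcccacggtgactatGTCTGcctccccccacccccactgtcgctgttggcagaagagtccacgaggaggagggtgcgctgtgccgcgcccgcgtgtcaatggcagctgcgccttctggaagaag
Tgif1, chr17:70851161-70851460, minus strand, TGACAG at 6: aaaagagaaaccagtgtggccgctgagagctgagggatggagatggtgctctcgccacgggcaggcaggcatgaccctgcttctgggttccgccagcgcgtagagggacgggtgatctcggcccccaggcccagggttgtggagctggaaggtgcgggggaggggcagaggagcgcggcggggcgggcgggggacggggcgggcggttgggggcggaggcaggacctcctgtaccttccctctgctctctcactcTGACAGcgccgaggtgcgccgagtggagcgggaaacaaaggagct
Tgif2, chr2:156839757-156840056, plus strand, no match: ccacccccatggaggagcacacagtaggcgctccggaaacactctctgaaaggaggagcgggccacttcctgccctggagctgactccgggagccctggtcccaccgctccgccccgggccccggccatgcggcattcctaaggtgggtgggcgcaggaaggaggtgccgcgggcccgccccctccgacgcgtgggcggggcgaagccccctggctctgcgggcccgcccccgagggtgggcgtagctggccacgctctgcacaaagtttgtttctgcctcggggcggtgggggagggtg
Positions are those of the first base of the match, counted from the start site. A match is a description of the letters and not of binding.

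Tgif2 differed less. It was at 32.2, 29.9 and 27.2 CPM in Rnf111+/- and 26.0, 26.7 and 26.3 CPM in wild-type ovaries. The ranges did not overlap, but the gap between them was 0.025 on the log2 scale, and the Rnf111+/- libraries were more spread (SD 2.50 CPM) than the wild-type libraries (SD 0.352 CPM). The fold change of 0.18 ± 0.09 on the log2 scale did not pass (adjusted p = 0.288, exact permutation p = 0.1), and its 95% interval, 0.973-fold to 1.31-fold, includes no difference. Exons of Tgif2 overlap a gene annotated on the opposite strand, 5430405H02Rik, which had 970 counts over all libraries, and the strand setting of the counting is not given. The ratio of Tgif1 to Tgif2 CPM within a library was 4.14, 5.34 and 5.27 in Rnf111+/- and 4.51, 3.91 and 3.52 in wild-type ovaries, which overlap between the genotypes.

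The Arkadia substrate genes Ski and Skil were examined next. Ski was at 184, 192 and 189 CPM in Rnf111+/- and 165, 179 and 167 CPM in wild-type ovaries. Its difference was small, 1.11-fold with a 95% interval from 0.999 to 1.22 (log2 0.14 ± 0.06, adjusted p = 0.201, exact permutation p = 0.1). The groups did not overlap, and the fold change lay between 0.13 and 0.19 on the log2 scale in every alternative fit, none of which called it. An increase in Ski RNA of more than 1.22-fold lies outside that interval.

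Skil was at 112, 110 and 109 CPM in the Rnf111+/- libraries and at 73.3, 80.3 and 109 CPM in the wild-type libraries. The coefficient of variation was 1.64% in Rnf111+/- and 21.4% in wild-type ovaries, where replicate 3 reached 98.5% of the Rnf111+/- mean. With all libraries the fold change was 0.34 ± 0.14 on the log2 scale, or 1.26-fold (95% interval 1.02 to 1.57, not adjusted for the number of genes), and did not pass (adjusted p = 0.171, exact permutation p = 0.2). Without wild-type replicate 3 it was 0.53 ± 0.07 (adjusted p = 0.00053), and without wild-type replicate 1 it was 0.23 (adjusted p = 0.338). The ratio of Skil to Ski CPM within a library was 0.610, 0.572 and 0.576 in Rnf111+/- and 0.444, 0.450 and 0.649 in wild-type ovaries, so that wild-type replicate 3 lay above every Rnf111+/- library. These are RNA levels, and the amounts of SKI and SnoN protein, on which Arkadia acts, were not measured here.

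Pmepa1 varied most among the 6 genes, with the highest library 2.45 times the lowest. It was at 93.2, 88.0 and 102 CPM in Rnf111+/- and at 41.5, 51.6 and 95.1 CPM in wild-type ovaries. The first 2 wild-type libraries were well below every Rnf111+/- library, and the third was at 101% of the Rnf111+/- mean. With all libraries the log2 fold change of 0.59 ± 0.31 did not pass (adjusted p = 0.299, exact permutation p = 0.3), with a 95% interval from 0.896-fold to 2.52-fold. Without wild-type replicate 3 it was 1.03 ± 0.10 (adjusted p = 9.17e-05), and without wild-type replicate 1 it was 0.37 (adjusted p = 0.46). In the fit without wild-type replicate 3, 3 of the 6 genes rose (Tgif1, Skil and Pmepa1), against 7.37% of the 17262 genes tested in it and 16.2% called in either direction. The placement of Skil and Pmepa1, with wild-type replicates 1 and 2 below all Rnf111+/- libraries and wild-type replicate 3 inside their range, was shared by 4.36% of all tested genes. The same placement with replicate 1 or 2 as the library inside the range was found for 3.14 and 3.15%.

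Bambi was the gene below 0. It was at 22.2, 21.2 and 22.4 CPM in Rnf111+/- and 21.2, 22.4 and 27.9 CPM in wild-type ovaries, so the groups overlapped and wild-type replicate 3 was the highest library. The log2 fold change of -0.12 ± 0.12 did not pass (adjusted p = 0.593, exact permutation p = 0.5), and the 95% interval ran from 0.760-fold to 1.12-fold. Without wild-type replicate 3 its sign turned, to 0.019 (adjusted p = 0.927).

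**Figure D2:**
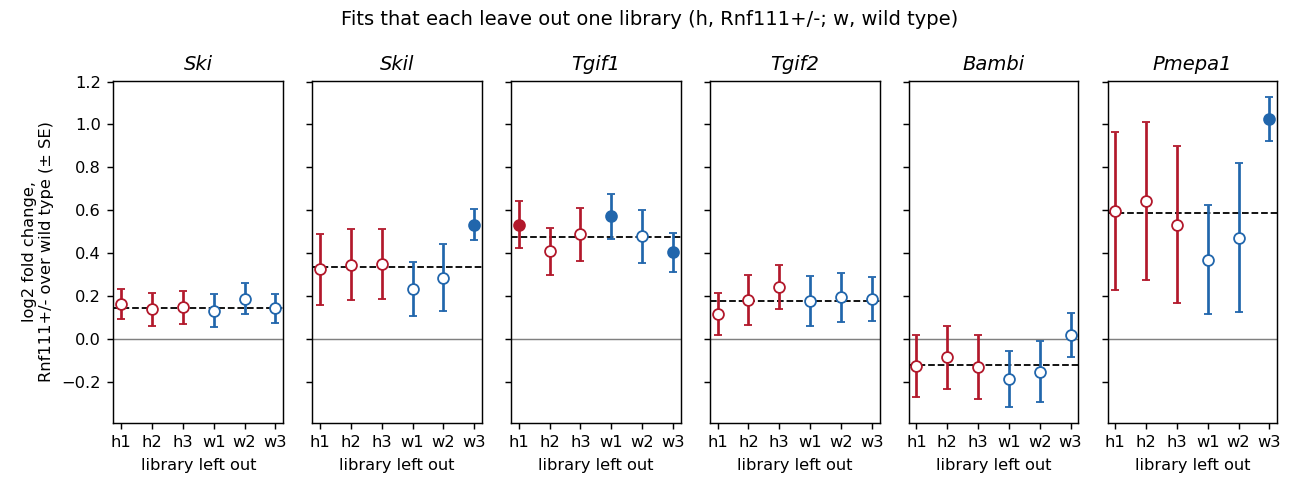
Log2 fold change of each gene, Rnf111+/- over wild type, with its SE (vertical axis), in 6 fits that each leave out 1 library (horizontal axis; h, Rnf111+/-, w, wild type, with the replicate number). Filled points passed at an adjusted p under 0.05 and the dashed line is the value with all libraries; leaving out wild-type replicate 3 moves Pmepa1 to 1.03, Skil to 0.53 and Bambi to 0.019, while Ski stays between 0.13 and 0.19.

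Summed oviduct markers were far higher in wild-type replicate 3 than in any other library, mostly through Ovgp1. Markers of corpora lutea went both ways. The summed level of 6 oviduct epithelium markers was 53.6 to 58.3 CPM in Rnf111+/- libraries, 69.4 and 72.3 CPM in wild-type replicates 1 and 2, and 227 CPM in wild-type replicate 3. Ovgp1, the oviduct secretory glycoprotein gene, was at 2.59 to 8.05 CPM in Rnf111+/- libraries and at 1.85, 6.27 and 146 CPM in wild-type replicates 1, 2 and 3. Foxj1, the factor for motile cilia, was at 0.522 to 1.69 CPM in Rnf111+/- libraries and at 0.0522, 0.518 and 13.7 CPM in those wild-type replicates. Ovgp1 and Foxj1 make up most of the 227 CPM, so that sum does not show that the other oviduct markers were higher in replicate 3. Of 8 luteal markers none rose and 2 fell (Parm1 and Star), with 3 above 0 and a median log2 fold change of -0.43, and without wild-type replicate 3, 3 rose and 2 fell (median -0.44). Among them Akr1c18, which inactivates progesterone and is named after its values were seen, did not pass with all libraries (adjusted p = 0.153), and was at 1981 to 2646 CPM in Rnf111+/- libraries and at 86.1, 66.7 and 676 CPM in wild-type replicates 1, 2 and 3, so that replicate 3 lay between the others. The summed level of the 8 luteal markers, to which Akr1c18 contributes, was 9336 to 13834 CPM in Rnf111+/- and 7556 to 10404 CPM in wild-type libraries, highest in replicate 3. The part of these differences in the levels of Skil, Pmepa1 and Bambi was not tested.

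Other cell type markers also differed between the genotypes. Of 12 oocyte markers, 8 rose and none fell, with a summed level of 276 to 370 CPM in Rnf111+/- and 199 to 219 CPM in wild-type libraries. Endothelial markers had 5 falls among 8 (294 to 341 CPM in Rnf111+/- against 400 to 467 CPM in wild type), and stromal markers 3 falls among 8 (957 to 1122 CPM in Rnf111+/- against 1465 to 1651 CPM in wild type). Of 11 markers of granulosa cells of growing follicles, 2 rose (Grem1 and Cyp19a1) and none fell, with sums of 5658 to 8456 CPM in Rnf111+/- and 2721 to 6539 CPM in wild-type libraries, lowest in replicate 3. Granulosa rises numbered 2, 1 and 2 without Rnf111+/- replicates 1, 2 and 3 in turn, and 1, 1 and 3 when each wild-type library was left out in that order. The 3 in the last of these fits were Grem1, Fshr and Inhba, and Cyp19a1 did not pass in it (adjusted p = 0.0725). Theca and interstitial markers had 1 rise and 3 falls among 7, smooth muscle markers 2 falls among 8, surface epithelium markers 1 rise and 3 falls among 9, and oviduct markers 1 fall among 6. In the fit without wild-type replicate 3, 1 oviduct marker rose and 1 fell. The rise was that of Krt5 (log2 9.81, adjusted p = 3.66e-05), named after its value was seen. Lists of 8 macrophage, 8 lymphocyte and 5 erythrocyte markers and 4 tested adipocyte markers had no call by edgeR or DESeq2 and 0 genes at an unadjusted p under 0.05, and without wild-type replicate 3, 3 macrophage markers and 1 adipocyte marker rose. Without Rnf111+/- replicates 1, 2 and 3 in turn, oocyte rises numbered 3, 2 and 6, endothelial falls 1, 0 and 1, stromal falls 1, 1 and 2, and surface epithelium falls 1, 0 and 1. Without wild-type replicates 1, 2 and 3 in turn, oocyte rises numbered 8, 3 and 8, endothelial falls 2, 1 and 4, stromal falls 2, 3 and 3, and surface epithelium falls 1, 1 and 3. None of the markers on these lists was at 0 in all libraries. In whole ovary, fewer cells of a type and less RNA per cell cannot be told apart, and the part of these markers in the difference of Tgif1 was not tested.

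Levels of the 6 genes were compared with each other only per length, as CPM per kilobase of annotated exon (GENCODE M21). In Rnf111+/- ovaries the order was Ski (33.9 ± 0.772), Tgif1 (25.9 ± 2.40), Pmepa1 (19.2 ± 1.41), Skil (11.4 ± 0.186), Tgif2 (7.76 ± 0.653) and Bambi (4.32 ± 0.129), all in CPM per kilobase (SD, n = 3), and no neighbours overlapped. In wild-type ovaries the order of means was the same: Ski (30.6 ± 1.29), Tgif1 (18.6 ± 2.18), Pmepa1 (12.8 ± 5.80), Skil (9.02 ± 1.93), Tgif2 (6.87 ± 0.0919) and Bambi (4.70 ± 0.699). There, Pmepa1 overlapped Tgif1, since its 19.4 CPM per kilobase in replicate 3 exceeded Tgif1 at 16.5 and 18.5, and it overlapped Skil, at 8.46 to 19.4 against 7.56 to 11.2 CPM per kilobase. These lengths are of the earlier build GRCm38 and include every annotated exon, so the order depends on the transcripts present.

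The profiles of the 6 genes over the libraries were compared with those of 11843 other genes of at least 5 CPM, by the root mean square difference of centred log2 CPM over all 6 libraries. The profile most like that of Tgif1 was that of Unc13b, a synaptic vesicle priming gene, at a difference of 0.028, and then Fam3c, a secreted protein gene, at 0.050. The log2 fold change was 0.46 ± 0.10 for Unc13b and 0.39 ± 0.12 for Fam3c. These genes were chosen for their likeness over the same libraries, which fixes such values, so they are given as a description with no test. Skil was closest to Tmem104 (0.049) and Nipa1 (0.049), Ski to Fbrsl1 (0.015) and Kctd20 (0.016), and Tgif2 to Ccdc130 (0.022) and Xbp1 (0.033). Bambi was closest to Snap29 (0.017) and Oma1 (0.024). Pmepa1 had no profile as near, with Ncf1 at 0.096 and Cyp4b1 at 0.11. Among the 6 genes, Ski and Tgif2 were the closest pair (0.086) and Tgif1 and Pmepa1 the farthest (0.48). This measure is not scaled to the spread of a gene, so genes that vary little lie close whatever their pattern. The highest library was 1.17 times the lowest for Ski and 1.24 times for Tgif2, against 2.45 times for Pmepa1.

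Genes that act with the 6 inhibitors were read from lists of the pathway. Of 15 other SMAD pathway inhibitors, 13 could be tested, of which 2 rose, 1 fell and 10 did not pass (median log2 0.033, against -0.0080 over all tested genes). Nedd4l, a ubiquitin ligase for SMADs, was at 39.3, 33.5 and 43.3 CPM in Rnf111+/- and 20.0, 23.9 and 25.2 CPM in wild-type ovaries (log2 0.75 ± 0.13, adjusted p = 0.0107). Smad7, the inhibitory SMAD that Arkadia marks for degradation, was at 36.2, 42.9 and 46.5 CPM in Rnf111+/- and 29.1, 32.9 and 30.7 CPM in wild-type ovaries (0.44 ± 0.11, adjusted p = 0.0398). Neither gene overlapped between the genotypes. Fkbp1a, whose product FKBP12 holds type I receptors inactive, fell to 249 ± 10.4 CPM in Rnf111+/-, against 335 ± 8.62 CPM in wild-type ovaries (-0.43 ± 0.07, adjusted p = 0.00645). The fall of Fkbp1a held in all 6 fits that left out a library. The rise of Nedd4l was lost without Rnf111+/- replicate 3 (adjusted p = 0.0522), and that of Smad7 was lost without Rnf111+/- replicates 2 (0.133) and 3 (0.141) and wild-type replicates 1 (0.11) and 2 (0.0714), and with limma-voom (0.0502). Without Rnf111+/- replicate 3 no gene of this list rose, without Rnf111+/- replicate 2 and without wild-type replicates 1 and 2, 1 rose in each, and without wild-type replicate 3, 3 rose.

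Corepressor partners, among them the NCOR, SIN3, HDAC, CTBP and TBL1 genes that SKI and TGIF proteins recruit, moved little. None of 14 passed by edgeR or by DESeq2, and 0 had an unadjusted p under 0.05 with edgeR. Their log2 fold changes ran from -0.17 to 0.09 with a median of 0.018. Without wild-type replicate 3, 1 fell, the histone deacetylase gene Hdac3 (-0.24, adjusted p = 0.036), named after its value was seen. On the list of 10 genes around Arkadia, Smad7 rose, Rnf111 fell, and 8 did not pass, among them the further Arkadia substrate gene Axin1 at 93.5 ± 2.79 CPM in Rnf111+/- and 80.0 ± 6.67 CPM in wild-type ovaries (0.22 ± 0.08, adjusted p = 0.112). In 4 of the 6 fits that left out a library (Rnf111+/- replicates 2 and 3 and wild-type replicates 1 and 2) none of the 10 passed, without Rnf111+/- replicate 1 Rnf111 did not, and without wild-type replicate 3 Skil rose as well.

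**Figure D3:**
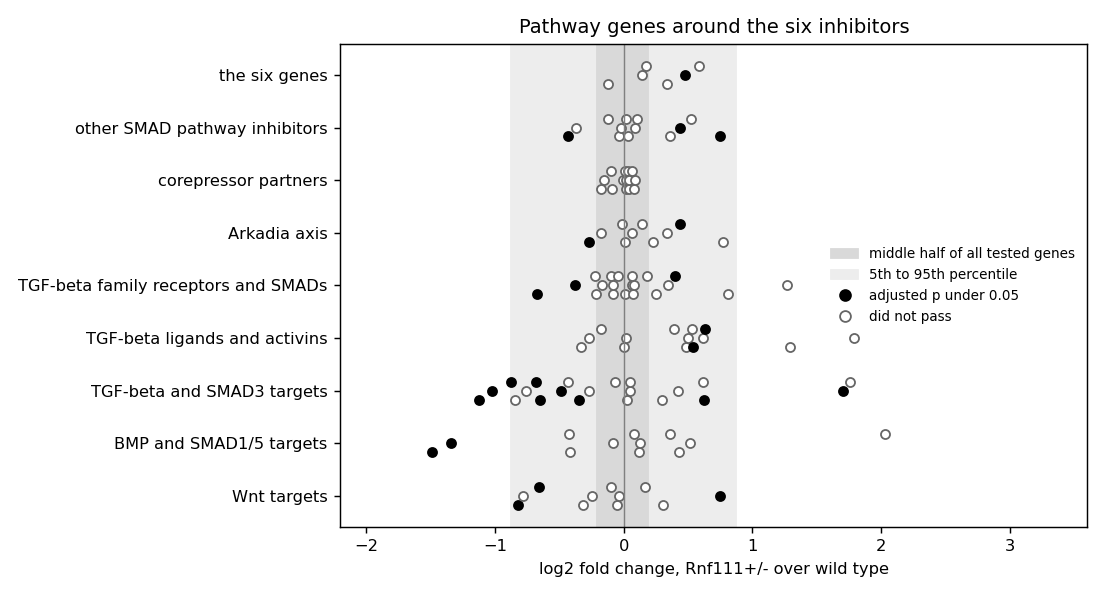
Log2 fold change, Rnf111+/- over wild type (horizontal axis), of the 6 inhibitor genes (top row) and of each tested gene of 8 pathway lists (rows); filled points passed at an adjusted p under 0.05, and the shaded bands hold the middle 50% and the 5th to 95th percentile of all tested genes. The 6 genes lie between -0.12 and 0.59, corepressor partners between -0.17 and 0.09, and most called TGF-beta and SMAD3 targets lie below 0.

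Upstream of the inhibitors, 3 of 20 receptor and SMAD genes passed. Smad3, a transducer of TGF-beta and activin signals and a partner of all 4 corepressors, rose to 140 ± 11.5 CPM in Rnf111+/-, against 106 ± 4.33 CPM in wild-type ovaries (0.40 ± 0.08, adjusted p = 0.0169). The type I receptor genes Acvr1 (-0.67 ± 0.13, adjusted p = 0.0152) and Acvrl1 (-0.38 ± 0.10, adjusted p = 0.0499) fell. Leaving out a library ended the call of Smad3 in 2 of 6 fits (Rnf111+/- replicate 2 and wild-type replicate 1), of Acvr1 in 3 (each Rnf111+/- replicate) and of Acvrl1 in 5 (all but the fit without wild-type replicate 3). Acvrl1 also lost its call in 5 of the 7 other settings. Without wild-type replicate 3, 3 genes of the list rose, and 4 did with DESeq2. Of 16 ligand genes 14 could be tested, and 2 rose, the oocyte growth factor genes Gdf9 (0.63 ± 0.10, adjusted p = 0.00707) and Bmp15 (0.54 ± 0.13, adjusted p = 0.0356), both also on the oocyte marker list. The rise of Gdf9 held in all 6 fits that left out a library and that of Bmp15 in 2, and 6 ligand genes rose without wild-type replicate 3, 6 with DESeq2, and 4 each with limma-voom and upper-quartile scaling. Without Rnf111+/- replicates 2 and 3 and wild-type replicate 2, 1 ligand gene rose in each.

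Downstream, 2 of 21 TGF-beta and SMAD3 targets rose, 7 fell and 12 did not pass, with a median of -0.27 on the log2 scale. The 4 of smallest p were all falls, namely the collagen gene Col3a1 (-1.02 ± 0.13, adjusted p = 0.00395), the smooth muscle gene Tagln (-1.13 ± 0.15, adjusted p = 0.00447), the fibronectin gene Fn1 (-0.49 ± 0.08) and the matrix gene Tgfbi (-0.65 ± 0.11). The rises, named after their values were seen, were those of Ccn2 (1.70 ± 0.31, adjusted p = 0.027) and Thbs1 (0.62 ± 0.14, adjusted p = 0.032), both secreted matricellular proteins. Col3a1, Tagln and Fn1 held in all 6 fits that left out a library, Tgfbi in 4, Thbs1 in 3 and Ccn2 in 2, and Ccn2 was also lost with no filter (adjusted p = 0.0931). Falls numbered 4 without Rnf111+/- replicate 1 and 3 without Rnf111+/- replicate 2, and rises numbered 0 without Rnf111+/- replicate 3 and wild-type replicate 1, 1 without Rnf111+/- replicates 1 and 2, and 3 without wild-type replicate 3. These matrix and muscle genes are also expressed by stromal and smooth muscle cells. Summed stromal markers were 957 to 1122 CPM in Rnf111+/- against 1465 to 1651 CPM in wild-type libraries. Summed smooth muscle markers were 815 to 1061 against 1217 to 1532 CPM. Those sums are not separate from the targets. Col1a1 (means of 370 against 591 CPM) is on the stromal and the target list. Tagln (187 against 409 CPM) and Acta2 (335 against 453 CPM) are on the smooth muscle and the target list. The part of those cells was not tested.

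Of 12 tested BMP and SMAD1/5 targets, 2 fell and none rose. Id2, an inhibitor of helix-loop-helix factors, fell to 60.4, 71.8 and 63.0 CPM in Rnf111+/-, against 174, 170 and 203 CPM in wild-type ovaries (-1.49 ± 0.10), and held in all 6 fits that left out a library. Runx2 fell by 1.34 on the log2 scale (adjusted p = 0.0257), and held in the fits without wild-type replicate 2 or 3 and not in the other 4 (adjusted p of up to 0.107) or with no filter (0.0933), where Id2 alone fell. Without Rnf111+/- replicate 1, 1 gene of the list rose. Among Wnt targets, read because Wnt signals induce Bambi, 1 of 11 rose and 2 fell. Lgr5, a receptor for R-spondins, rose (0.74 ± 0.08), and Axin2 (-0.82 ± 0.14) and Ccnd1 (-0.66 ± 0.12) fell. Lgr5 is also on the surface epithelium marker list, where it is the 1 rise. Falls in the Wnt list numbered 1 without each Rnf111+/- replicate (Ccnd1 without replicates 1 and 3, Axin2 without replicate 2). They numbered 4 without wild-type replicate 3.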

How the data were processed

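The values are whole-number read counts per gene symbol, which the authors deposited as 1 table with a column for each library. Per the labels' protocols, TRIzol was used for total RNA and a VAHTS Universal V6 kit for the libraries. The submitters' processing notes name fastp (0.20.1), HISAT2 (2.1.0), HTSeq (0.11.2), DESeq2 (1.38.3) and GRCm39; the sources used here state neither their roles nor the annotation or strand setting. Replicate pairs differed by a chi-square of at least 12.5 per degree of freedom, so all 6 libraries were kept as separate.

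The count analysis used edgeR (4.0.16) under R (4.3.3), with filterByExpr (minimum count 10, minimum total 15), TMM scaling, a robust quasi-likelihood fit with genotype as its only term, and Benjamini-Hochberg adjustment over all 16841 tested genes. Adjusted p-values are from edgeR where no other tool is named. The SE was taken as the size of the log2 fold change over the square root of F. The script was tested on simulated data. Alternatives were DESeq2 size factors, upper-quartile scaling, no filter (any gene with 1 count), a filter at 1 CPM in 3 libraries with at least 50 counts summed, DESeq2 (1.42.0), limma-voom (3.58.1), the replicate number as a block, and each library left out. Lists are described by counts and medians only. Genes named are the 6 inhibitors, Rnf111, up to 4 called genes of smallest p from each pathway list, genes needed to read a result, and the 2 nearest profiles of each inhibitor. The 6 genes and the lists were chosen with earlier results of these data known. Promoter windows came from RefSeq (GRCm38.p6) and were matched for 3 of the 6 genes. No window was matched for Skil, Bambi or Pmepa1, which does not show that RefSeq lacks windows for them. The match left out the windows of 1 chromosome, and whether that accounts for each of these genes was not examined. Exon lengths came from GENCODE M21 on GRCm38. P-values measure the spread between mice as labelled. Counting error excludes amplification, since no molecular identifiers are named.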

Additional observations from a re-analysis of the deposited data

How the results depend on the processing

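Of the 6 inhibitors, Ski and Tgif2 kept their direction and stayed above the threshold in all 13 alternative fits. In fits that left out 1 library, log2 fold changes ran from 0.13 to 0.19 for Ski, 0.12 to 0.24 for Tgif2, 0.40 to 0.57 for Tgif1, 0.23 to 0.53 for Skil, 0.37 to 1.03 for Pmepa1, -0.19 to 0.019 for Bambi, whose sign turned without wild-type replicate 3, and -0.27 to -0.26 for Rnf111. The cause was not tested. The number of inhibitors that rose was 0 to 3 in those fits. Over all genes, 224 to 1273 rose and 297 to 1522 fell, against 657 and 966 with all libraries, and DESeq2 called 1172 as higher. The call of Rnf111 was lost with upper-quartile scaling (-0.24, adjusted p = 0.0602), with no filter (-0.27, adjusted p = 0.0762) and in the replicate block fit (-0.27, adjusted p = 0.0653). The same-numbered libraries' deviations correlated across genes at 0.012, 0.0057 and 0.1, and differently numbered ones at -0.071 to 0.059. With 3 mice a genotype, these values cannot decide whether the numbers pair the mice. With the block 1626 genes were called, against 1623 without it, and none of the 6 inhibitors changed its call. With the block Acvrl1, Ccn2 and Runx2 lost theirs (adjusted p = 0.0588, 0.12 and 0.0709). Counts of called genes per list moved by over 1.5 times in 104 of 546 list counts, most of them small numbers. The lowest count of the 6 genes, 812, has a counting error of 3.51%. With 3 mice a genotype, differences as small as that of Ski were not resolved.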
